A study of Octopus bimaculoides with 16 samples.

Results

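Genes were compared between cells dissociated from the rims of octopus suckers and the statocyst, the balance organ, in Octopus bimaculoides, the California two-spot octopus. A gene belonged to the comparison when it reached 10 CPM (read counts scaled to a total of 1000000 per library) in either library and its level on the scale log2(CPM + 1) differed at least 4-fold between them. Genes at 10 CPM or more in both were added when the lower of the pair stood at least 4-fold above mantle skin. Of 15842 genes in the table, 10102 reached 10 CPM in either library. The first rule took 1479 of these as higher in rim cells, which is 14.6% of the genes tested, and 1529 as higher in statocyst, which is 15.1%. The added rule took 178 of the 6687 genes at 10 CPM or more in both, which is 2.66%. Since 72 of these 178 also passed the first rule, the lists held 3114 genes together. These shares and the direction between rim cells, statocyst and skin follow from the rules and are given as a description.

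The study sequenced messenger RNA from sensory organs and tissues for comparison, dissected by hand. Rim cells came from sucker rims and had been dissociated before RNA extraction, and the library title names 8 suckers but no arm. The other tissues were statocyst, whole sucker cup from arm R1 (1 library labelled automated and 1 labelled manual, terms that the labels do not explain), olfactory organ, skin of the mantle, eye, and optic lobe of the brain. Neither age, sex nor treatment of the animals is given in the labels, nor whether tissues shared an animal. Rim cells and statocyst had 1 library each, so no significance test was made, and every interval is a 95% interval that covers counting error alone. The rim library also differed from the statocyst library in having been dissociated, and this cannot be told apart from the tissue.

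The sucker rim carries a sensory epithelium with which an octopus touches and tastes what it grasps, and its receptor cells include mechanosensory and chemosensory types. The statocysts are paired fluid-filled sacs in the cartilage of the head, in which hair cells on a macula and on cristae report gravity and rotation. Both organs thus hold ciliated mechanosensory cells, set in an outer skin in one case and in a closed internal sac in the other. The gene identifiers carried no functional names except for OTX and hedgehog, so receptor families, hair cell genes and other markers could not be looked up and the tissue labels could not be checked against defining markers.

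The rim library was the deepest of the series with 36916825 reads, and the statocyst library had 15167497. A single read was worth 0.0271 CPM in rim cells and 0.0659 CPM in statocyst. The other 6 libraries held 4782744 to 14264654 reads. At least 10 CPM was reached by 8256 genes in rim cells and by 8533 in statocyst. CPM is not divided by transcript length, so values are compared between tissues for 1 gene and not between genes. In RNA from whole tissue pieces, fewer cells of a type and less RNA per cell cannot be told apart.

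Rim cells were most like whole cup and statocyst most like eye. Over the 14783 genes that had at least 1 read in the series, the Pearson correlation of log2(CPM + 1) between them was 0.648, a description over genes that are not independent. Rim cells correlated with the whole cup libraries at 0.937 and 0.938, with olfactory organ at 0.888, with skin at 0.882, with eye at 0.710 and with optic lobe at 0.671. Statocyst correlated with eye at 0.762, with optic lobe at 0.681, with olfactory organ at 0.649, with skin at 0.624 and with the cup libraries at 0.612 and 0.613. The value between rim cells and statocyst was thus the lowest for rim cells and in the middle of those for statocyst. Of the 10102 genes tested, 4647 lay within 2-fold of each other in rim cells and statocyst (46.0%). The median log2 difference, rim cells minus statocyst, was -0.33.

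**Figure D1:**
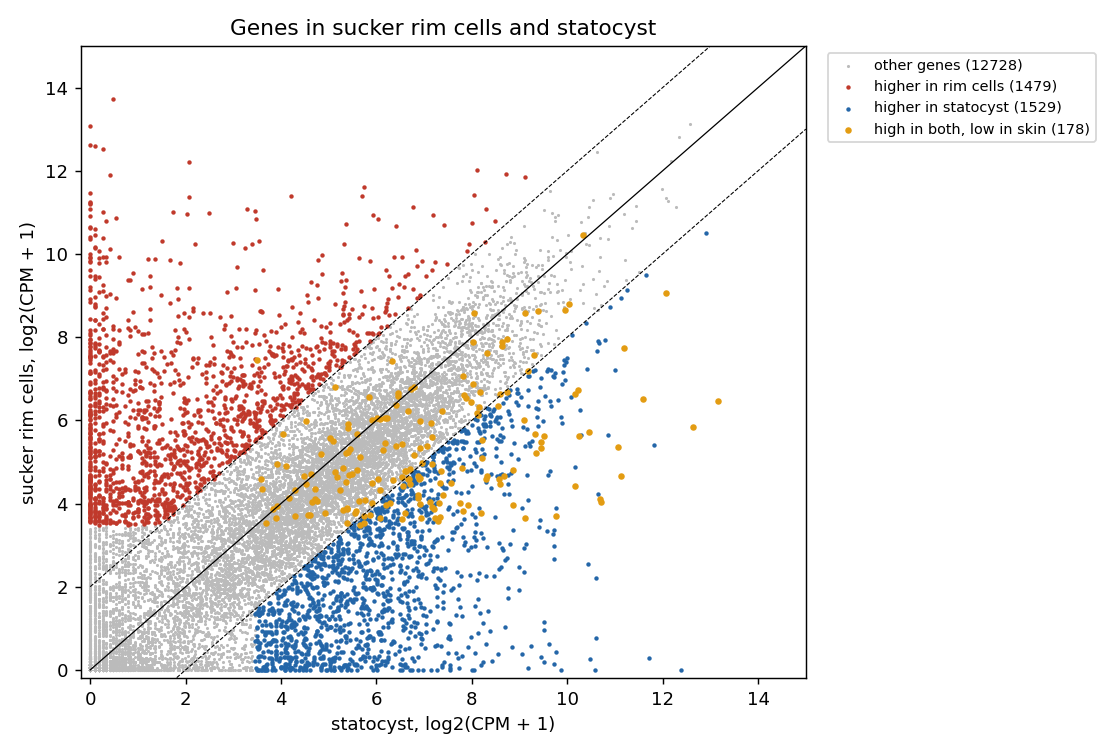
Level of each gene in sucker rim cells (vertical axis) and statocyst (horizontal axis), both as log2(CPM + 1) in 1 library each. The solid line marks equal levels and the dashed lines a 4-fold difference. The 1479 genes higher in rim cells lie above the lines, the 1529 higher in statocyst below, and the 178 high in both but low in skin lie mostly on the statocyst side of the solid line.

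Among the 1479 genes higher in rim cells, the median difference was 3.67 on the log2 scale, and 617 were at least 16-fold apart. At the far end, 83 genes differed at least 256-fold. Their median level was 71.6 CPM in rim cells and 2.18 CPM in statocyst. The statocyst library held no read of 150 of them and under 1 CPM of 533, while 339 still had 10 CPM or more there. Together they took 34.0% of all rim cell reads (interval 33.9 to 34.0) and 1.64% of statocyst reads.

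Just inside the limit on this side stood LOC106873749, with 23.2 CPM in rim cells and 5.01 CPM in statocyst, a log2 difference of 2.01. Just outside it stood LOC106876833, with 54.0 CPM in rim cells and 12.8 CPM in statocyst.

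The largest difference on this side belonged to LOC106873795. Its level was 13440 CPM in rim cells, 0.396 CPM in statocyst, 22601 and 20696 CPM in automated and manual whole cup, 9783 CPM in olfactory organ, 38543 CPM in skin, 67.4 CPM in eye and 0.558 CPM in optic lobe. It was thus a gene of all 4 surface tissues, skin above all, with few reads in optic lobe and 6 reads in statocyst. The ratio of rim cells to statocyst was 33976 (15610 to 92582).

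The gene that followed, LOC106869022, had a different distribution. It stood at 8569 CPM in rim cells, 0 in statocyst, 13722 and 13687 CPM in automated and manual cup, 0 in olfactory organ, 0.836 CPM in skin, 0 in eye and 0.558 CPM in optic lobe. It was high in the 3 sucker libraries and at or near 0 in the other 5. At a floor of 3 reads in the statocyst library it was 43324-fold higher in rim cells, and the exact lower limit was smaller, 35233-fold.

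Most genes higher in rim cells reached 10 CPM in skin and olfactory organ, at shares close to those of all genes tested, and fewer did in eye and optic lobe. In whole cup, as the mean of both libraries, 1301 of the 1479 reached 10 CPM (88.0%), as did 7579 of all 10102 genes tested. The same level was reached by 1198 in olfactory organ (81.0%, against 78.4% of all genes tested) and by 1166 in skin (78.8%, against 74.6%). Eye and optic lobe were below the share of all genes tested, with 767 (51.9%, against 75.8%) and 473 (32.0%, against 59.1%).

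Medians over the list told the same order. They were 61.2 and 62.1 CPM in automated and manual cup, 60.1 CPM in olfactory organ, 58.5 CPM in skin, 10.9 CPM in eye and 1.30 CPM in optic lobe. Over all genes tested the medians were 25.3 and 26.0 CPM in the cup libraries, 31.5 CPM in olfactory organ, 27.4 CPM in skin, 25.8 CPM in eye and 15.8 CPM in optic lobe. Rim cells had the highest level of the 7 tissues for 490 of the genes (33.1%, against 12.7% of all genes tested), a share that the rule raises. Skin exceeded rim cells for 617 (41.7%, against 44.8%) and olfactory organ for 657 (44.4%, against 54.9%).

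**Figure D2:**
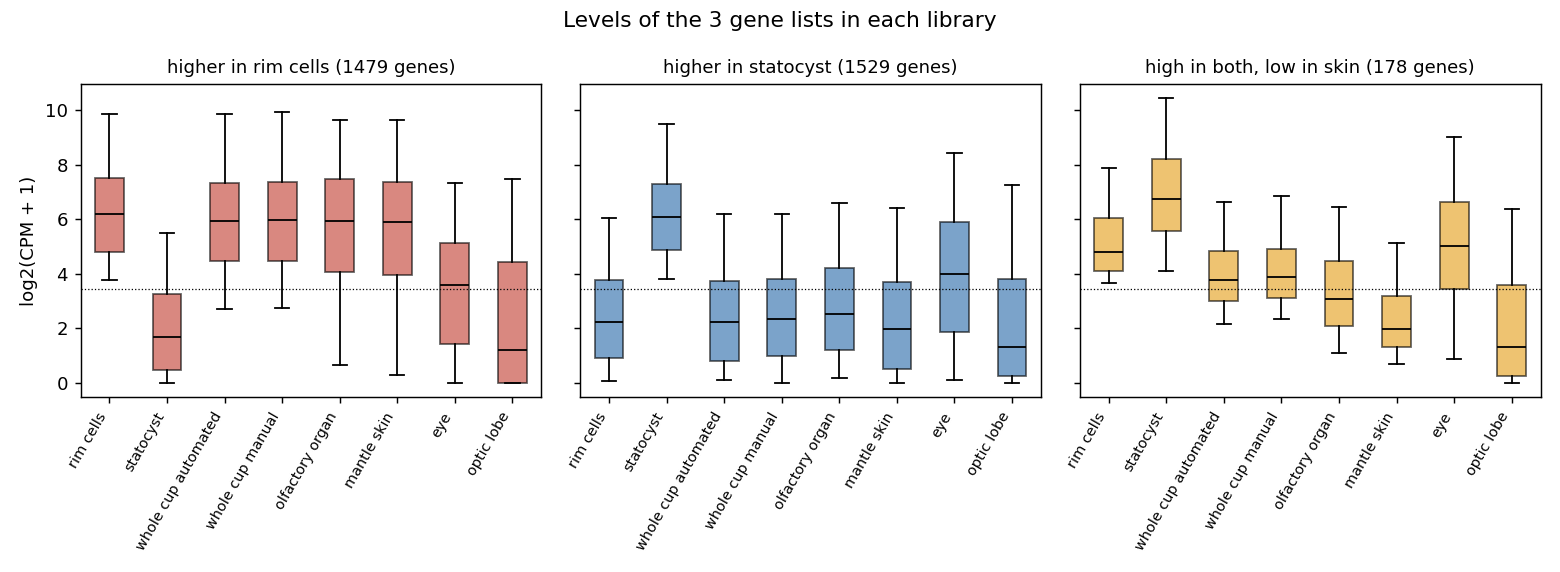
Levels of the 3 gene lists in each of the 8 libraries, as log2(CPM + 1). Boxes span the quartiles with the median as a line, whiskers the 5th to 95th percentile of genes, and the dotted line 10 CPM. Genes higher in rim cells have medians of 58.5 to 71.6 CPM in the cup, olfactory, skin and rim libraries, genes higher in statocyst have their next highest median in eye (15.1 CPM), and genes high in both have medians of 107 CPM in statocyst and 31.9 CPM in eye.

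The libraries that took no part in the rule split these genes in the same way. Whole cup was at least 4-fold above eye for 688 of the 1479 genes (46.5%), where 8.32% of all genes tested were. The median log2 difference, cup minus eye, was 2.04 over the list and -0.07 over all genes tested. Olfactory organ was at least 4-fold above eye for 691 genes (46.7%, against 9.75% of all genes tested) and skin for 645 (43.6%, against 8.35%). The opposite, eye at least 4-fold above cup, held for 20 genes (1.35%, against 7.37% of all genes tested).

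By their levels elsewhere, groups among the 1479 genes were drawn after the values were seen, and they do not cover the whole list. The largest, with 815 genes, reached 10 CPM in eye or optic lobe as well (55.1%, against 78.3% of all genes tested). Another 460 reached 10 CPM in olfactory organ or skin but not in eye or optic lobe (31.1%, against 9.82%). Another 67 genes were under 1 CPM in olfactory organ, skin, eye and optic lobe alike (4.53%, against 2.18% of all genes tested), and they took 4.27% of the rim cell reads. Their medians were 58.5 CPM in rim cells and 86.0 and 82.5 CPM in automated and manual cup, so they were sucker genes in both kinds of sucker sample.

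The order of rim cells and whole cup differed between sucker genes. LOC106868721, one of the 67 and chosen after its values were seen, had 551 CPM in rim cells, 0.198 CPM in statocyst from 3 reads, 30.8 and 35.2 CPM in automated and manual cup, and no read in olfactory organ, skin, eye or optic lobe. It was thus found in suckers and was 16.7-fold higher in rim cells than in the mean of the cup libraries, with a ratio of rim cells to statocyst of 2786 (953 to 13513). LOC106869021, chosen in the same way and not among the 67, had 293 CPM in rim cells, 0.198 CPM in statocyst, 8825 and 8252 CPM in automated and manual cup, 1.61 CPM in olfactory organ, 1.25 CPM in skin, 6.94 CPM in eye and 0.186 CPM in optic lobe. Here the order was opposite, with the cup libraries far above rim cells.

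Over the whole list the cup was at least 2-fold below rim cells for 329 genes (22.2%), where 10.7% of all genes tested were, and at least 2-fold above for 109 (7.37%). The median log2 difference, cup minus rim cells, was -0.27. Over the 6687 genes at 10 CPM or more in both rim cells and statocyst, this median was -0.25. In that set, which leaves out most of this list, cup was at least 2-fold above rim cells for 1.33%. The rim level had entered the rule, which favours genes with a high rim value.

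With statocyst also set aside, optic lobe was the highest of the other tissues for 141 of the genes higher in rim cells (9.53%, against 19.6% of all genes tested). Their medians were 44.9 CPM in rim cells, 5.93 CPM in statocyst, 39.6 CPM in eye and 109.8 CPM in optic lobe. LOC106870273, chosen after its values were seen, had 1271 CPM in rim cells, 10.6 CPM in statocyst, 612 and 601 CPM in automated and manual cup, 888 CPM in olfactory organ, 931 CPM in skin, 1401 CPM in eye and 14799 CPM in optic lobe. Statocyst was the lowest library for this gene and every other library had at least 600.6 CPM.

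Some genes higher in rim cells lay next to each other. In the gene order of the reference table (assembly ASM119413v2, used for order and names only), 1275 of them were placed, which is 9.15% of 13929 placed genes. Of the 2542 places beside them, 476 held another gene of the list (18.7%). The placed genes include genes under 10 CPM in both libraries, which the rule could not take. Of the genes tested, 14.6% were in the list, and the share among tested neighbours was not computed. There were 170 runs of 2 or more with 408 genes, 51 runs of 3 or more, and a longest run of 6. Neighbouring genes can be near-identical copies between which read assignment is uncertain, and their similarity was not tested.

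The run of 6, LOC106884207 to LOC106884204, had 11.5 to 442 CPM in rim cells and 0 to 0.198 CPM in statocyst. Olfactory organ reached 940 CPM and skin 360 CPM in this run, while eye stayed at or below 3.51 CPM and optic lobe at or below 0.744 CPM. A run of 5 began with LOC106869022 and held LOC106869027, LOC106869021, LOC106873034 and LOC106873033. Its levels ran from 13.2 to 8569 CPM in rim cells and from 0 to 0.198 CPM in statocyst, and no gene of it passed 1.61 CPM in olfactory organ or 1.25 CPM in skin.

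Within that run LOC106869027 had 6316 CPM in rim cells and 10661 and 10116 CPM in automated and manual cup. LOC106873033 had 183 CPM in rim cells and 3458 and 3332 CPM in the same cup libraries. Neighbours with high levels in the sucker libraries only therefore differed from each other in how rim cells compared with whole cup. The other run of 5, LOC106877147 to LOC106877143, was graded rather than present or absent, with 116 to 309 CPM in rim cells, 56.2 to 170 CPM in skin and 9.23 to 27.8 CPM in statocyst.

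**Figure D3:**
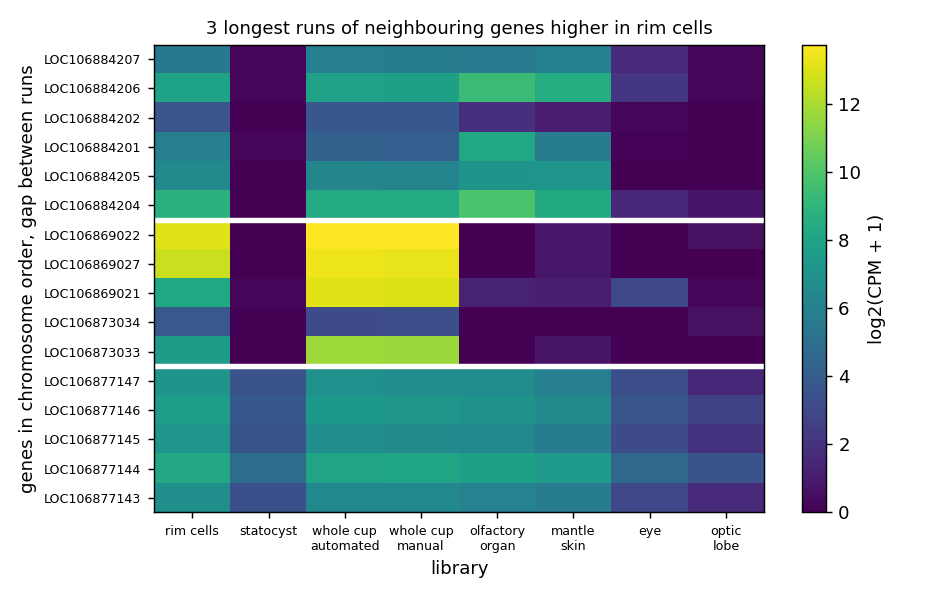
Levels, as log2(CPM + 1) on the colour scale, of the genes in the 3 longest runs of neighbouring genes higher in rim cells, one row per gene in gene order and one column per library, with white gaps between runs. The first run has its highest levels in rim cells, cup, olfactory organ and skin, except for LOC106884202, which is low in the latter pair, the second reaches 13722 CPM in the sucker libraries, with LOC106873034 at no more than 13.2 CPM, and the third is present in statocyst too, at 9.23 to 27.8 CPM.

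On the other side, the 1529 genes higher in statocyst had a median difference of -3.45 on the log2 scale, rim cells minus statocyst. Of them, 523 were at least 16-fold apart and 24 at least 256-fold. Their median level was 67.0 CPM in statocyst and 3.74 CPM in rim cells. The rim cell library held no read of 45 of them and under 1 CPM of 399, while 450 had 10 CPM or more there. They took 28.9% of statocyst reads and 2.50% of rim cell reads.

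Just inside the limit on this side stood LOC106874052, with 4.63 CPM in rim cells and 21.6 CPM in statocyst, a log2 difference of -2.01. Just outside it stood LOC106871586, with 39.6 CPM in rim cells and 161 CPM in statocyst.

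The largest difference belonged to LOC106873202. Its level was 0 in rim cells, 5342 CPM in statocyst, 0.0845 and 0.121 CPM in automated and manual cup, 0.351 CPM in olfactory organ, 0.418 CPM in skin, 0.899 CPM in eye and 1.30 CPM in optic lobe. All libraries but statocyst were near 0. At a floor of 3 reads in the rim library it was 65733-fold higher in statocyst, and the exact lower limit was smaller, 53456-fold.

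LOC106877028 came next, with 0.217 CPM in rim cells, 3346 CPM in statocyst, 0.423 CPM in automated cup, 0 in manual cup, 39.1 CPM in olfactory organ, 0.418 CPM in skin, 86.5 CPM in eye and 0 in optic lobe. Eye and olfactory organ held a low level of this gene and the suckers, skin and optic lobe almost none. From 8 reads in rim cells, the ratio of statocyst to rim cells was 15440.0 (7835 to 35765).

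Both genes with a functional name in the reference table were on the statocyst side. OTX (LOC106873941), a homeodomain transcription factor known from vertebrates and insects for roles in the head, brain and eye, had 1.44 CPM in rim cells, 29.9 CPM in statocyst, 0.338 and 1.09 CPM in automated and manual cup, 3.08 CPM in olfactory organ, 0.209 CPM in skin, 94.3 CPM in eye and 0.558 CPM in optic lobe. Eye was highest and statocyst followed, with the remaining libraries far lower. Statocyst exceeded rim cells 20.9-fold (15.7 to 28.3), and eye exceeded statocyst 3.15-fold (2.83 to 3.52).

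Hedgehog (LOC106871116), a secreted signalling protein known for patterning tissues in animal embryos, had 0.108 CPM in rim cells, 13.1 CPM in statocyst, 0 in both cup libraries and in olfactory organ, 0.209 CPM in skin, 1.72 CPM in eye and 0.372 CPM in optic lobe. Statocyst was the single library above 2 CPM, with 199 reads against 4 in rim cells. The ratio was 121 (46.6 to 449), and the log2 difference of -3.67 became -1.83, under the limit, with a pseudocount of 5 CPM.

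Eye was most often the tissue with the highest level after statocyst and rim cells were both set aside. It had the highest level of the other tissues for 888 of the 1529 genes (58.1%), as it had for 2444 of all 10102 genes tested. At least 10 CPM was reached in eye by 904 genes (59.1%, against 75.8% of all genes tested). The same level was reached by 547 in olfactory organ (35.8%, against 78.4%), 434 in skin (28.4%, against 74.6%) and 433 in optic lobe (28.3%, against 59.1%). In whole cup 462 reached it (30.2%), as did 7579 of all 10102 genes tested. Medians were 15.1 CPM in eye, 4.84 CPM in olfactory organ, 3.72 and 4.10 CPM in automated and manual cup, 2.93 CPM in skin and 1.49 CPM in optic lobe.

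In libraries outside the rule, eye was at least 4-fold above whole cup for 469 of these genes (30.7%), against 7.37% of all genes tested. It was at least 4-fold above skin for 491 (32.1%, against 8.39% of all genes tested) and above olfactory organ for 417 (27.3%, against 7.24%). Cup was at least 4-fold above eye for 18 (1.18%, against 8.32% of all genes tested). The median log2 difference, cup minus eye, was -1.24 over the list.

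Statocyst itself was the highest of the 7 tissues for 1261 of the genes (82.5%, against 38.9% of all genes tested), a share that the rule raises, and eye exceeded it for 216 (14.1%, against 33.3%). Groups drawn after the values were seen show how many were found elsewhere. Of the 1529 genes, 535 were under 10 CPM in each of the other 6 tissues (35.0%, against 8.24% of all genes tested). Rim cells are among these 6 tissues and their low level entered the rule, which raises this share. Among the 535 genes, 108 were under 1 CPM in each (7.06% of the list). The rule takes every tested gene with that distribution, so these 108 are all such genes among the 10102 tested. A further 338 reached 10 CPM in eye but not in cup, olfactory organ or skin (22.1%, against 5.44%). Only 58 reached 10 CPM in cup, olfactory organ or skin and neither in eye nor in optic lobe (3.79%, against 11.3%).

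Several genes with very high statocyst levels were present in other tissues too. LOC106881140, chosen after its values were seen, had 87.1 CPM in rim cells, 9144 CPM in statocyst, 54.2 and 54.1 CPM in automated and manual cup, 72.1 CPM in olfactory organ, 9.41 CPM in skin, 26.7 CPM in eye and 0 in optic lobe. LOC106867751, from the same choice, had 55.9 CPM in rim cells, 6364 CPM in statocyst, 24.1 and 19.4 CPM in automated and manual cup, 13.1 CPM in olfactory organ, 4.18 CPM in skin, 24.0 CPM in eye and 0.372 CPM in optic lobe. Both were highest in statocyst by a wide margin, and rim cells exceeded skin for each.

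LOC106872007, also chosen after its values were seen, was lower in rim cells than in the other surface tissues. It had 41.5 CPM in rim cells, 3608 CPM in statocyst, 823 and 791 CPM in automated and manual cup, 206 CPM in olfactory organ, 542 CPM in skin, 4371 CPM in eye and 4.84 CPM in optic lobe. The ratio of rim cells to the mean of the cup libraries was 0.0514.

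Some genes on this side were neighbours too. Of the 1529 genes, 1383 were placed, which is 9.93% of placed genes, and 464 of the 2760 places beside them held another gene of the list (16.8%). Here too the placed genes include genes that were not tested, and of the genes tested 15.1% were in the list. The share among tested neighbours was not computed on this side either. There were 158 runs of 2 or more with 390 genes, 29 runs of 3 or more, and 9 of 5 or more. The longest held 13 genes, a length that 2 runs reached.

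In the first run of 13, which held LOC106872380 and LOC106880260, levels were 15.1 to 700.4 CPM in statocyst with a median of 71.5 CPM, and 0.217 to 43.9 CPM in rim cells with a median of 1.79 CPM. In the other run of 13, which held LOC106875084 and LOC106879921, levels were 23.4 to 130.5 CPM in statocyst with a median of 70.4 CPM, and 0.0542 to 13.5 CPM in rim cells with a median of 0.650 CPM. No gene of either run passed 18.4 CPM in eye or 5.23 CPM in skin, and every gene of both runs was highest in statocyst.

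A run of 5 with LOC106868320 and LOC106868323 differed from these. LOC106868320 had 20.3 CPM in rim cells, 256 CPM in statocyst, 1312 and 1278 CPM in automated and manual cup, 21.6 CPM in olfactory organ, 3474 CPM in skin, 2035 CPM in eye and 100.3 CPM in optic lobe. LOC106868323 had 24.8 CPM in rim cells, 385 CPM in statocyst, 1626 and 1682 CPM in automated and manual cup, 17.5 CPM in olfactory organ, 4090 CPM in skin, 2681 CPM in eye and 108 CPM in optic lobe. Both were genes of skin, eye and whole cup in which rim cells and olfactory organ were the low libraries.

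**Figure D4:**
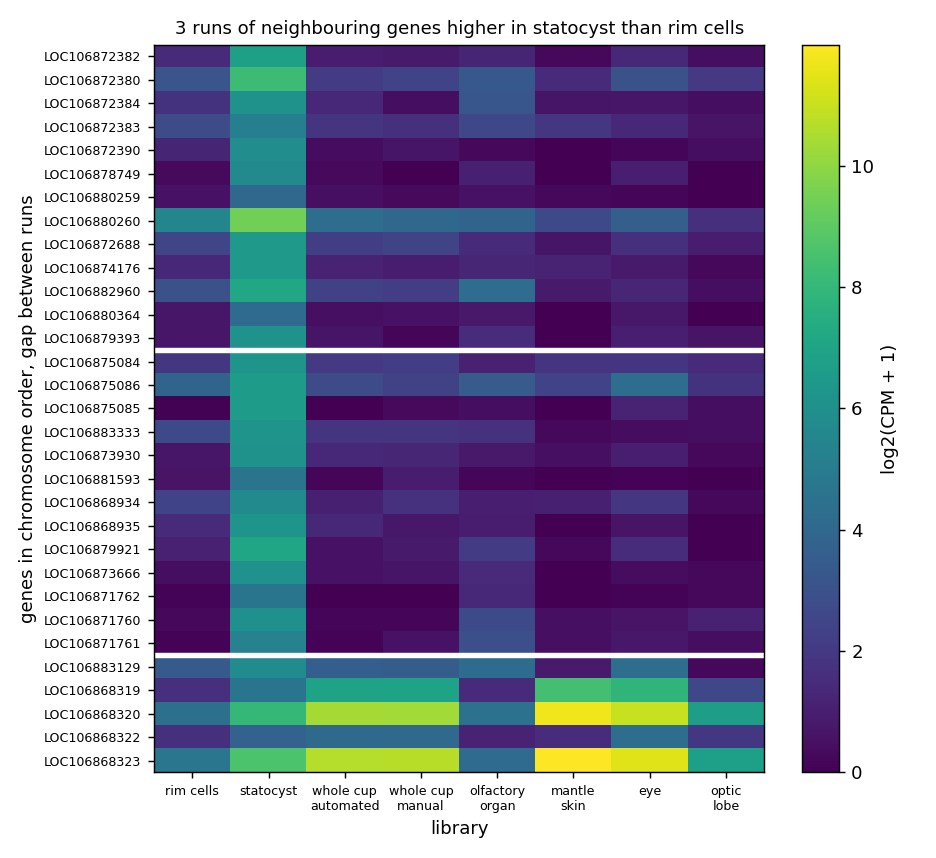
Levels, as log2(CPM + 1) on the colour scale, of genes in 3 runs of neighbouring genes higher in statocyst than in rim cells, one row per gene in gene order and one column per library, with white gaps between runs. Both runs of 13 stand out in statocyst, at 15.1 to 700.4 CPM, and the run of 5 holds 3 genes that are highest in skin.

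The 178 genes high in rim cells and statocyst but low in skin were on the whole more abundant in statocyst. Their medians were 27.0 CPM in rim cells, 107 CPM in statocyst, 12.6 and 13.7 CPM in automated and manual cup, 7.50 CPM in olfactory organ, 2.93 CPM in skin, 31.9 CPM in eye and 1.49 CPM in optic lobe. Over all 6687 genes at 10 CPM or more in both, the medians were 45.3 CPM in rim cells, 54.8 CPM in statocyst, 45.9 CPM in olfactory organ, 42.0 CPM in eye and 29.8 CPM in optic lobe. The lower of rim cells and statocyst exceeded skin by a median of 2.65 on the log2 scale, and by at least 8-fold for 56 genes and at least 16-fold for 9.

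Among the 178, 71 were also in the list higher in statocyst, 1 was in the list higher in rim cells and 106 were in neither. Of the 6687 genes, 6.73% were in the list higher in statocyst, 5.07% in the list higher in rim cells and 88.2% in neither. Rim cells exceeded statocyst for 29 (16.3%, against 38.9% of the 6687 genes). The 1 gene of the rim list, LOC106877074, had 173 CPM in rim cells, 10.2 CPM in statocyst, 89.5 and 86.2 CPM in automated and manual cup, 0.841 CPM in olfactory organ, 1.25 CPM in skin, 80.4 CPM in eye and 0 in optic lobe. It was present in suckers and eye and nearly absent from olfactory organ and skin.

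Just inside the limit stood LOC106875647, with 12.3 CPM in rim cells, 23.5 CPM in statocyst and 2.30 CPM in skin. Just outside it stood LOC106881088, with 95.8 CPM in rim cells, 114 CPM in statocyst and 23.2 CPM in skin.

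LOC106882732 exceeded skin by the widest margin. It had 90.9 CPM in rim cells, 3097 CPM in statocyst, 50.2 and 51.5 CPM in automated and manual cup, 6.10 CPM in olfactory organ, 2.51 CPM in skin, 0.572 CPM in eye and 0.372 CPM in optic lobe. Statocyst was highest, the sucker libraries followed, and eye and optic lobe held almost none. Rim cells exceeded skin 36.2-fold (20.7 to 70.2) and statocyst exceeded rim cells 34.1-fold (32.9 to 35.3).

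LOC106880165 came second, with 98.8 CPM in rim cells, 1144 CPM in statocyst, 39.1 and 48.0 CPM in automated and manual cup, 31.5 CPM in olfactory organ, 2.93 CPM in skin, 6.45 CPM in eye and 2.98 CPM in optic lobe. Statocyst was again highest and the sucker libraries followed, with olfactory organ close behind and skin, eye and optic lobe low. Rim cells exceeded skin 33.7-fold (20.1 to 61.8) and statocyst exceeded rim cells 11.6-fold.

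Eye held more of these genes than olfactory organ or optic lobe, and each share was below that of all genes at 10 CPM or more in both. At least 10 CPM was reached by 133 of the 178 in eye (74.7%, against 93.4% of the 6687 genes), by 75 in olfactory organ (42.1%, against 94.3%) and by 46 in optic lobe (25.8%, against 77.9%). Eye was the highest of the other tissues for 98 (55.1%, against 22.2% of the 6687). It was at least 4-fold above olfactory organ for 74 genes (41.6%), where 5.5% of the 6687 were, and at least 4-fold above whole cup for 52 (29.2%), where 4.68% were. Olfactory organ was at least 4-fold above eye for 4 genes (2.25%, against 5.38% of the 6687). Whole cup was at least 4-fold above eye for 15 (8.43%, against 3.29%), so both directions between cup and eye held larger shares than among the 6687 genes.

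Whole cup stood below rim cells for 167 of the 178 (93.8%, against 70.3% of the 6687 genes). It was at least 2-fold below for 113, where 9.96% of the 6687 genes were, and the median log2 difference, cup minus rim cells, was -1.25 against -0.25. The rim level had entered the rule and the cup level had not, which favours this direction. With a whole cup library in place of rim cells, in alternatives chosen after seeing the data, the rule took 51 genes from the automated library and 55 from the manual library, of which 43 and 46 were among the 178.

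LOC106869364, chosen after its values were seen, was the member with the highest CPM at the lower of rim cells and statocyst. It had 1396 CPM in rim cells, 1287 CPM in statocyst, 101 and 116 CPM in automated and manual cup, 138 CPM in olfactory organ, 91.8 CPM in skin, 860 CPM in eye and 56.4 CPM in optic lobe. Rim cells, statocyst and eye formed a high group well above the other 5 libraries. Rim cells exceeded the mean of the cup libraries 12.9-fold.

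LOC106878448 and LOC106867991, neighbours in the gene order and also chosen after their values were seen, had a similar distribution at lower levels. LOC106878448 had 21.8 CPM in rim cells, 40.3 CPM in statocyst, 1.01 and 2.29 CPM in automated and manual cup, 2.80 CPM in olfactory organ, 3.35 CPM in skin, 49.7 CPM in eye and 5.21 CPM in optic lobe. LOC106867991 had 34.9 CPM in rim cells, 109 CPM in statocyst, 3.30 and 4.10 CPM in automated and manual cup, 5.12 CPM in olfactory organ, 7.32 CPM in skin, 157 CPM in eye and 46.0 CPM in optic lobe. In each case eye was highest and statocyst second, with rim cells next for LOC106878448 but behind optic lobe for LOC106867991. Rim cells stood 13.2-fold and 9.45-fold above the mean of the cup libraries.

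**Figure D5:**
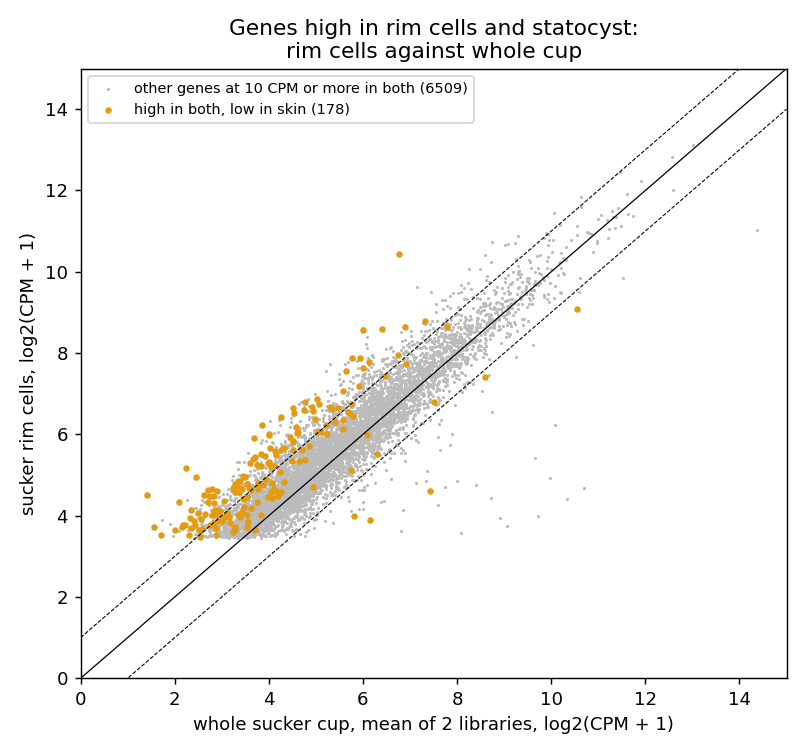
Rim cells (vertical axis) against the mean of the whole cup libraries (horizontal axis), both as log2(CPM + 1), for the genes at 10 CPM or more in rim cells and statocyst. The solid line marks equal levels and the dashed lines a 2-fold difference. Of the 178 genes high in both but low in skin, 167 lie above the solid line and 113 on or above the upper dashed line.

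The opposite order between rim cells and cup was less common. LOC106873798, chosen after its values were seen, had 537 CPM in rim cells, 4308 CPM in statocyst, 1532 and 1482 CPM in automated and manual cup, 1597 CPM in olfactory organ, 26.1 CPM in skin, 2702 CPM in eye and 0.372 CPM in optic lobe. All sensory organs sampled held this gene at 537 CPM or more, while skin was low and optic lobe near 0.

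Some genes were shared by rim cells and statocyst and low in the other organs. Of the 178, 39 were under 10 CPM in olfactory organ, eye and optic lobe (21.9%, against 1.79% of the 6687 genes). For 21 genes, a group drawn after the values were seen, the lower of rim cells and statocyst was at least 4-fold above olfactory organ, skin, eye and optic lobe. They were 0.314% of the 6687 genes, and since skin was among the tissues compared, all such genes belong to the 178 by rule. Their medians were 33.7 CPM in rim cells, 73.6 CPM in statocyst, 11.7 and 14.0 CPM in automated and manual cup, 2.66 CPM in olfactory organ, 2.51 CPM in skin, 1.23 CPM in eye and 0.372 CPM in optic lobe.

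LOC106880934 had the highest rim level of these 21 genes and was chosen after its values were seen. It had 212 CPM in rim cells, 2319 CPM in statocyst, 123 and 116 CPM in automated and manual cup, 29.2 CPM in olfactory organ, 18.2 CPM in skin, 13.7 CPM in eye and 0 in optic lobe. LOC106881492, from the same choice, had 16.6 CPM in rim cells, 17.0 CPM in statocyst, 4.31 and 3.86 CPM in automated and manual cup, 2.73 CPM in olfactory organ, 1.05 CPM in skin, 0.163 CPM in eye and 0.558 CPM in optic lobe. The first was far higher in statocyst than in rim cells, and for the second the difference between them was within counting error, with a ratio interval of 0.844 to 1.14.

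Some of the 178 genes were also neighbours. In the gene order 161 were placed, which is 1.16% of placed genes, and 14 of the 320 places beside them held another member (4.38%), in 7 pairs and no longer run. Of the 6687 genes at 10 CPM or more in both, 2.66% were in the list. The list is much smaller than the other lists, so its number of runs cannot be set against theirs. They took 1.20% of rim cell reads and 6.87% of statocyst reads, against 0.148% in skin and 2.46% in eye.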

How the data were processed

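Per the labels, RNA of hand-dissected tissue was taken up by phenol-chloroform extraction and turned into libraries with the Kapa mRNA HyperPlus kit. Trim Galore and kallisto are named in the submitters' processing notes; for tool versions, build and annotation, nothing was given in the sources used here. In all, the authors deposited 1 table of log2(CPM + 1) with 1 column per library, in which the 2 lanes of each library were already merged. CPM was recovered as 2 to the power of the deposited value, minus 1, and each column summed to 1000000. Every value was a whole multiple of 1 read within 0.01 reads, which gave reads per gene and library totals; deposited counts may have been rounded.

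Ratios used a pseudocount of 1 CPM on the log2 scale, which understates changes of low genes, while quoted ratios of reads used none and carry exact Clopper-Pearson intervals. Shares of reads carry Wilson intervals. A value of 0 was set to 3 reads per library for a bound. No molecular identifiers are stated, so counting error is all that the intervals and the floor cover. For whole cup, the CPM of its 2 libraries were averaged.

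Members and lists were chosen with earlier results of these data known. The reference table (ASM119413v2) matched 14305 of 15842 identifiers, placed 13929 and gave 2 a functional name. The rule for named genes therefore allowed 2 identifiers per list, those with the largest log2 difference. Most others are marked in the text as chosen after their values were seen. The genes nearest the limits and the 2 genes with a functional name were added beyond that number. LOC106877074 was named as the only gene shared by the list higher in rim cells and the list low in skin. Neighbours in runs were taken by run length or chosen after their values were seen. A planned description of protein features could not be made. Scripts used Python 3.11.15, numpy 2.4.6, pandas 2.3.3, scipy 1.17.1 and matplotlib 3.10.9 and were tested on simulated data. Alternatives were other pseudocounts, floors and fold limits, other scalings, thinning to equal depth, and a whole cup library in place of rim cells.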

Additional observations from a re-analysis of the deposited data

How the results depend on the processing

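No paired analysis was possible because each tissue had 1 library and the numbers in the labels are sequencing lanes; leaving out a replicate was not possible for the same reason. Of 33 counts under alternatives, 25 stayed within 1.5 times. Inside that range, the list of 178 genes high in both but low in skin still shrank. It held 129 genes when the lower counting bound of both ratios to skin had to reach 4-fold. Under other scalings it held 147 (median of ratios) and 154 (trimmed mean of M values). A floor of 50 CPM left 872 genes higher in rim cells, 912 higher in statocyst and 50 high in both but low in skin. A limit of 8-fold left 948 higher in statocyst and 56 high in both. A pseudocount of 5 CPM left 75 high in both, and a whole cup library in place of rim cells, chosen after seeing the data, left 51 (automated) and 55 (manual). The 8 genes checked were OTX, hedgehog and the 2 with the largest log2 difference in each list. The latter lie so far from the limit that these settings could hardly bring them under it. Of 32 settings, 31 kept the call and none reversed it, and hedgehog lost it with a pseudocount of 5 CPM. Other scalings shifted the log2 difference, rim cells minus statocyst, by 0.29 (median of ratios, 1632 and 1240 genes higher in rim cells and statocyst) and 0.27 (trimmed mean of M values, 1635 and 1263). Depth limits low genes most in skin and optic lobe, where 1 read was worth 0.209 and 0.186 CPM.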

Other observations

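Some genes of both lists had their highest level in optic lobe, followed by eye. LOC106876298, chosen after its values were seen, had 0.108 CPM in rim cells, 23.0 CPM in statocyst, 0.592 and 0.965 CPM in automated and manual cup, 2.73 CPM in olfactory organ, 104 CPM in skin, 7983 CPM in eye and 65721 CPM in optic lobe. Optic lobe and eye were far above all other libraries, and this gene alone took 6.57% of the optic lobe reads, where the whole list higher in statocyst took 20.2%. LOC106869894, in the list higher in rim cells and also chosen after its values were seen, had 368 CPM in rim cells, 38.4 CPM in statocyst, 332 and 318 CPM in automated and manual cup, 511 CPM in olfactory organ, 568 CPM in skin, 4375 CPM in eye and 24786 CPM in optic lobe. Statocyst was the lowest library for this gene.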
